A study of Homo sapiens with 12 samples.

Results

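The genes described here are 7 lysosomal peptidases (DPP7, PRCP, CTSA, TPP1, CTSB, CTSL and CTSD), the lysosomal lipid hydrolase GALC and the lysosomal membrane protein LAMP1. They were taken by symbol from the 60708 gene IDs in the count tables, and all 9 were found. DPP7 was chosen by its measured p between the constructs, the smallest of all genes, a choice that also favours a gene with little spread within a construct. GALC is present in 1 clone and at 0 counts in the others, and its levels and those of the other members were also known when the list was made. Differences between the constructs are therefore given for these genes as a description, with no test.

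The 12 mRNA-seq libraries came from hTERT RPE-1 cells, an established human line of retinal pigment epithelium made immortal by telomerase. The LmnB1 libraries came from 2 clonal stable lines, LmnB1_16 and LmnB1_6, that overexpress lamin B1, a protein of the nuclear lamina, as a fusion with the red fluorescent protein mCherry. The mCherry libraries came from 2 clonal lines, mCherry_4 and mCherry_3, that overexpress mCherry alone. All 4 clones grew with hygromycin B and were treated for 24 hours with 0.05 ug/mL doxycycline, and each gave 3 libraries that the labels call biological replicates. Since the 3 libraries of a clone share that clone, a p-value between the constructs measures the spread between these 12 libraries, over 2 clones per construct.

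Lysosomes break down proteins, lipids and glycans with acid hydrolases that are carried from the Golgi apparatus by mannose 6-phosphate receptors and work in a lumen acidified by a proton pump, the V-ATPase. The peptidases fall into classes by their active site: DPP7, PRCP, CTSA and TPP1 are serine peptidases, CTSB and CTSL are cysteine cathepsins, and CTSD is an aspartic cathepsin. In the eye, the retinal pigment epithelium uses them to digest the shed outer segments of photoreceptors. Many lysosomal genes carry the palindrome CACGTG near their start, the core of the element bound by the transcription factors TFEB and TFE3.

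Library totals were 20598852 to 29477253 estimated counts, and 15388 genes passed the low-count filter. LMNB1, the overexpressed gene, averaged 3675 ± 386 CPM in LmnB1 libraries and 123.2 ± 42.4 CPM in mCherry libraries (SD, n = 6 each; log2 fold change 4.90, SE 0.23, edgeR adjusted p = 1.25e-07). CPM, counts scaled to the library total and a TMM factor, are used below to compare 1 gene between libraries. Of the 11 pigment epithelium markers listed, 5 were tested; RPE65, TYR and TTR, which define differentiated pigment epithelium, had 0 counts in all libraries, while the keratins KRT8 and KRT18 were abundant. The clones of 1 construct differed widely: 5289 genes, 34.4% of those tested, differed between LmnB1_16 and LmnB1_6 at an edgeR adjusted p under 0.05, and 5752, or 37.4%, differed between mCherry_4 and mCherry_3. The sources used here do not give strand or read length.

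The promoters of 8 of the 9 genes were found in RefSeq's table for GRCh38.p14, as windows of 250 bases before to 50 after an annotated start. CACGTG, which reads the same on both strands, was present for 4 of them, DPP7, CTSA, CTSD and LAMP1, and absent from the windows of PRCP, TPP1, CTSL and GALC. Over all windows it was found in 7.26% of 35116, and in 8.77% of the 27305 genes. The sequences below run from 145 bases before to 5 after the start, 5′ to 3′ on the gene's strand, with CACGTG in capitals. Shown are DPP7 and its close relative PRCP, whose log2 fold changes between the constructs were -2.95 and -0.02, then the 3 others that hold the motif, and GALC, which was counted in 1 clone.
DPP7, chr9:137114729-137114878, minus strand: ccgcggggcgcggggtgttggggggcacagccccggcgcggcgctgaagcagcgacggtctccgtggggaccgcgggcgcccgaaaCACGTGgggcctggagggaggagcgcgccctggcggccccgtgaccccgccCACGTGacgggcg
PRCP, chr11:82901640-82901789, minus strand: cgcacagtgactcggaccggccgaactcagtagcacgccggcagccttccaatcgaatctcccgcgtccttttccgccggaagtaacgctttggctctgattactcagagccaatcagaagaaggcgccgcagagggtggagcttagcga
CTSA, chr20:45891190-45891339, plus strand: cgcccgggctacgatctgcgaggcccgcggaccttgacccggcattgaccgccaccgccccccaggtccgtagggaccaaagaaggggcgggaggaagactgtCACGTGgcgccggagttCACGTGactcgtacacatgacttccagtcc
CTSD, chr11:1763923-1764072, minus strand: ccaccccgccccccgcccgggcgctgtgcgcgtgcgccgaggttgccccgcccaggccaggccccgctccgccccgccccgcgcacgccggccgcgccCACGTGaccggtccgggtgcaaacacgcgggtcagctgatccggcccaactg
LAMP1, chr13:113297094-113297243, plus strand: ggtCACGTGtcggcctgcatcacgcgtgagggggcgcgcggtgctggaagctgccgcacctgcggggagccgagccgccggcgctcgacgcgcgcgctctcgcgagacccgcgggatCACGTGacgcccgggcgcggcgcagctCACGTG
GALC, chr14:87993178-87993327, minus strand: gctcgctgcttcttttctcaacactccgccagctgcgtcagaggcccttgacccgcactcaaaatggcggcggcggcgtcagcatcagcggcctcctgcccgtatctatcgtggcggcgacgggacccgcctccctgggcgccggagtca

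Counted from the annotated start, the first base of CACGTG lay at -59 and -8 in DPP7, at -42 and -25 in CTSA and at -47 in CTSD. LAMP1 had 6 copies, at -192, -176, -159, -142, -28 and -1, of which the last 3 fall in the stretch printed. The longer form TCACGTG, read on either strand and always containing CACGTG, was found in the same 4 genes, against 4.49% of all genes. The 10-base palindrome that adds GT before and AC after CACGTG was found in none of the windows of these 8 genes, and in 0.353% of all windows. PRCP has 2 annotated windows and GALC 4, of which 1 each is printed. The DPP7 window held 80.0% G or C, the CTSD window 77.3%, the LAMP1 window 75.0% and the CTSA window 66.7%. The absence of a match says only that these letters are not in the window. Between the constructs, the log2 fold changes of the 4 genes with the motif were -2.95 (DPP7), 0.13 (CTSA), -0.11 (CTSD) and -0.03 (LAMP1). Those of PRCP, TPP1 and CTSL, without it, were -0.02, 0.0 and 0.1. Whether the motif bears on these levels was not tested.

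DPP7 was far lower in both LmnB1 clones than in both mCherry clones. DPP7 (ENSG00000176978.14, chr9:137110542-137115177 in GRCh38, minus strand) is a dipeptidyl peptidase that removes dipeptides from the N-terminus of peptides with proline or alanine in the second position. It had 8.56, 8.01 and 7.95 CPM in LmnB1_16 libraries and 9.20, 7.95 and 7.58 CPM in LmnB1_6 libraries, against 65.3, 56.6 and 58.0 CPM in mCherry_4 libraries and 66.5, 66.9 and 67.3 CPM in mCherry_3 libraries. The groups did not overlap: the lowest mCherry library was 6.16-fold above the highest LmnB1 library. DPP7 was the 1 gene of the 9 for which they did not overlap, where 8.66% of all tested genes did not overlap, 3.8% higher and 4.85% lower in LmnB1. These values chose the gene, so nothing is read from that count.

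The means were 8.21 ± 0.578 CPM in LmnB1 libraries and 63.4 ± 4.81 CPM in mCherry libraries (SD, n = 6 each), 7.73-fold lower in LmnB1 (log2 fold change -2.95, SE 0.07). The clones stood close together within each construct. LmnB1_16 differed from LmnB1_6 by -0.01 (SE 0.10) and mCherry_4 from mCherry_3 by -0.16 (SE 0.07) on the log2 scale. Taken clone by clone, the 4 comparisons of LmnB1 with mCherry lay between -3.03 and -2.86. DPP7 transcripts were still counted in every LmnB1 library, with 162 to 226 estimated counts, against 1357 to 1866 in mCherry libraries. The estimated effective transcript length averaged 1019 bases in LmnB1 libraries and 1019 bases in mCherry libraries, and was alike in both. In bulk libraries, fewer cells that express a gene and less RNA per cell cannot be told apart.

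**Figure D1:**
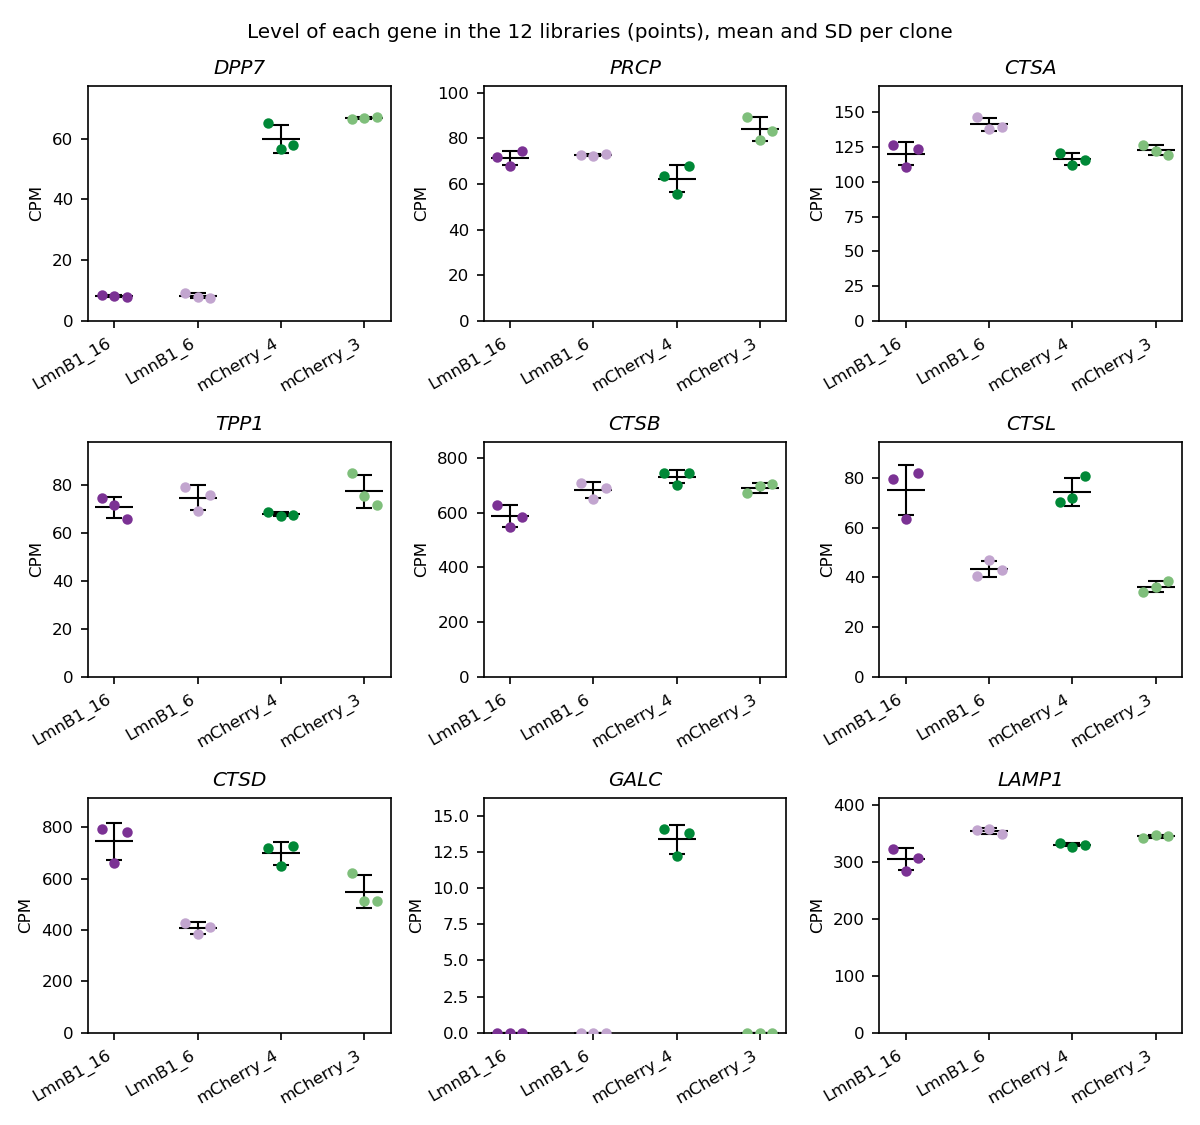
Level of each of the 9 genes in the 12 libraries. The y axis is CPM from 0, each point is a library, and the lines are the mean and SD of the 3 libraries of a clone, with the LmnB1 clones on the left. DPP7 is near 8.21 CPM in all LmnB1 libraries and near 63.4 CPM in mCherry libraries, GALC has counts in mCherry_4 alone, and CTSL separates the clones within each construct.

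PRCP, the relative of DPP7, did not follow it. PRCP (ENSG00000137509.12, chr11:82823502-82970584, minus strand) is a lysosomal carboxypeptidase that removes the last residue after a proline, and it cleaves angiotensin II. It had 71.6, 68.0 and 74.4 CPM in LmnB1_16 libraries and 72.8, 72.4 and 73.2 CPM in LmnB1_6 libraries, against 63.4, 55.8 and 67.8 CPM in mCherry_4 libraries and 89.6, 79.1 and 83.0 CPM in mCherry_3 libraries. The LmnB1 libraries lay inside the range of the mCherry libraries, and the log2 fold change between the constructs was -0.02 (SE 0.10). The difference lay between the mCherry clones. PRCP was lower in mCherry_4 than in mCherry_3 by a log2 fold change of -0.43 (SE 0.07, edgeR adjusted p = 0.000177), while LmnB1_16 and LmnB1_6 differed by -0.03 (SE 0.07, edgeR adjusted p = 0.804). DDIAS lies within the PRCP locus on the opposite strand, and whether its reads were told from those of PRCP is not known, since strand is not given.

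CTSA (ENSG00000064601.21, chr20:45890144-45898820, plus strand), also called protective protein, is a carboxypeptidase that holds beta-galactosidase and neuraminidase in a complex. It averaged 120.1 ± 8.41 CPM in LmnB1_16 and 141.4 ± 4.83 CPM in LmnB1_6, against 116.3 ± 4.39 CPM in mCherry_4 and 122.5 ± 3.59 CPM in mCherry_3 (SD, n = 3 each). LmnB1_6 was the highest clone, and its lowest library, 138.1 CPM, was above the highest library of every other clone. CTSA was lower in LmnB1_16 than in LmnB1_6 (log2 fold change -0.23, SE 0.06, edgeR adjusted p = 0.00488). The mCherry clones differed by -0.08 (SE 0.06, edgeR adjusted p = 0.346), which did not pass the test. On log2(TPM + 0.1), with TPM the authors' unit scaled by transcript length, it was -0.2 and passed the limma test (adjusted p = 0.0124). Less the median of all genes on that scale, the difference was -0.07. PLTP and NEURL2 overlap CTSA on the opposite strand, with 456.8 and 199.3 estimated counts over all libraries.

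TPP1 (ENSG00000166340.18, chr11:6612763-6619485, minus strand) removes tripeptides from the N-terminus of peptides, and its loss causes a neuronal ceroid lipofuscinosis. Its libraries covered 65.8 to 79.3 CPM in LmnB1 and 67.2 to 85.1 CPM in mCherry, and the log2 fold change was 0.00 (SE 0.07). LmnB1_16 and LmnB1_6 differed by -0.08 (SE 0.07, edgeR adjusted p = 0.441). The mCherry_4 clone differed from mCherry_3 by -0.19 (SE 0.07, edgeR adjusted p = 0.0509), a value at the threshold. It passed under 8 of 17 alternatives, whose adjusted p ran from 0.0154 to 0.235. TPP1 was also the member whose estimated effective length varied most within clones, with 3198, 3080 and 2258 bases in the LmnB1_16 libraries, a length that enters its TPM, the authors' unit scaled by transcript length.

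CTSL and CTSD differed between the clones of each construct. CTSL (ENSG00000135047.16, chr9:87725519-87731393, plus strand), a cysteine endopeptidase, had 79.7, 63.6 and 82.1 CPM in LmnB1_16 libraries and 40.6, 46.9 and 42.8 CPM in LmnB1_6 libraries, against 70.4, 72.0 and 80.6 CPM in mCherry_4 libraries and 33.9, 36.1 and 38.5 CPM in mCherry_3 libraries. LmnB1_16 and mCherry_4 were high and LmnB1_6 and mCherry_3 low, with no overlap between the high and low pairs. CTSL was 1.73-fold higher in LmnB1_16 than in LmnB1_6 (log2 fold change 0.79, SE 0.09, edgeR adjusted p = 3.52e-06). Within mCherry, the level was 2.06-fold higher in mCherry_4 (log2 fold change 1.04, SE 0.09, edgeR adjusted p = 2.79e-07). The construct means were close, at 59.3 ± 18.6 CPM in LmnB1 and 55.3 ± 21.3 CPM in mCherry libraries (SD, n = 6 each), and the sign of a clone contrast depended on the clones set against each other, from -0.78 for LmnB1_6 over mCherry_4 to 1.06 for LmnB1_16 over mCherry_3.

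CTSD (ENSG00000117984.15, chr11:1752752-1764573, minus strand) is the main aspartic endopeptidase of lysosomes and in the pigment epithelium takes part in the breakdown of rhodopsin. It had 794.9, 662.2 and 780.3 CPM in LmnB1_16 libraries and 429.2, 383.4 and 413.1 CPM in LmnB1_6 libraries, against 719.6, 648.5 and 727.5 CPM in mCherry_4 libraries and 622.7, 511.2 and 514.2 CPM in mCherry_3 libraries. LmnB1_6 was the low clone here, below every library of the others. CTSD was 1.83-fold higher in LmnB1_16 than in LmnB1_6 (log2 fold change 0.87, SE 0.09, edgeR adjusted p = 4.53e-07). In mCherry_4 the CTSD level exceeded that in mCherry_3 by 0.35 (SE 0.08, edgeR adjusted p = 0.00409). On log2(TPM + 0.1) that difference was 0.22 and did not pass the limma test (adjusted p = 0.0724, against 1.04e-06 to 0.0724 over all 17 alternatives). On that scale the median of all genes in this contrast was -0.125, and CTSD lay 0.34 above it. Another annotated protein-coding gene, ENSG00000250644, overlaps CTSD on the same strand, and how the authors' counting split reads between them is not known.

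CTSB (ENSG00000164733.22, chr8:11842524-11869448, minus strand), a cysteine peptidase that acts both as endopeptidase and as dipeptidyl carboxypeptidase, averaged 586.5 ± 40.5 CPM in LmnB1_16 and 682.3 ± 29.98 CPM in LmnB1_6, against 731.3 ± 24.6 CPM in mCherry_4 and 691.7 ± 18.7 CPM in mCherry_3 (SD, n = 3 each). LmnB1_16 was the lowest clone, and its 3 libraries were below all others. CTSB was lower in LmnB1_16 than in LmnB1_6 (log2 fold change -0.22, SE 0.06, edgeR adjusted p = 0.00732), the direction opposite to CTSL and CTSD in the same contrast. The mCherry clones differed by 0.08 (SE 0.06, edgeR adjusted p = 0.304), and on the TPM scale by -0.07 before the shift of all genes.

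LAMP1 (ENSG00000185896.11, chr13:113297241-113323672, plus strand), a heavily glycosylated protein of the lysosomal membrane that is widely used to mark the organelle, averaged 305.0 ± 19.4 CPM in LmnB1_16 and 354.4 ± 5.30 CPM in LmnB1_6, against 330.4 ± 2.93 CPM in mCherry_4 and 345.1 ± 2.84 CPM in mCherry_3 (SD, n = 3 each). The clones stayed within a narrow band, with LmnB1_16 at its lower edge. LAMP1 was lower in LmnB1_16 than in LmnB1_6 (log2 fold change -0.22, SE 0.05, edgeR adjusted p = 0.00369). The mCherry clones differed by -0.06 (SE 0.05, edgeR adjusted p = 0.377). On log2(TPM + 0.1) that difference was -0.19 and passed the limma test (adjusted p = 0.00378). Less the median of all genes on that scale, it was -0.07.

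**Figure D2:**
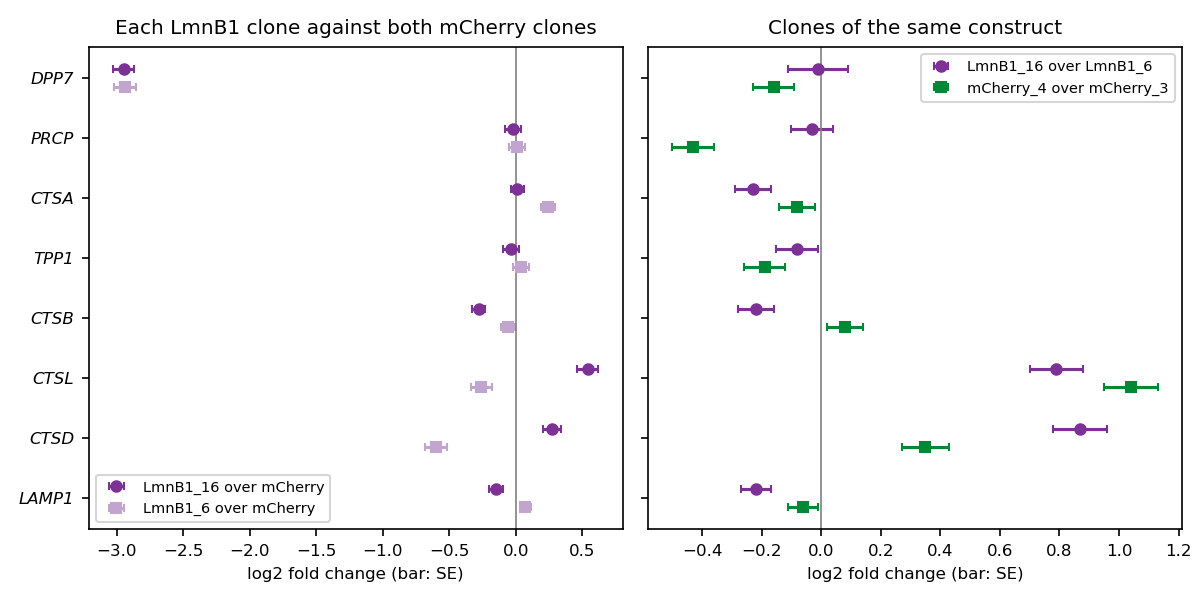
Log2 fold changes of 8 of the genes, with the SE as bars, on the left for each LmnB1 clone over both mCherry clones and on the right for the clones of 1 construct. GALC is left out because its counts are 0 in 3 clones. DPP7 stands at -2.95 and -2.94 for the LmnB1 clones and near 0 within the constructs, while CTSL differs by 0.79 and 1.04 and CTSD by 0.87 and 0.35 within LmnB1 and within mCherry.

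Between the constructs the log2 fold changes of the 7 genes other than DPP7 and GALC ran from -0.17 (CTSB) to 0.13 (CTSA), and the libraries of the 2 constructs overlapped for each of them. Within LmnB1, 2 of these 7 were higher in LmnB1_16 than in LmnB1_6 (CTSL and CTSD), 3 were lower (CTSA, CTSB and LAMP1) and 2 did not pass the test, where 17.8% of all tested genes were higher and 16.6% lower. Within mCherry, 2 were higher in mCherry_4 than in mCherry_3 (CTSL and CTSD), 1 was lower (PRCP) and 4 did not pass, where 19.9% of all genes were higher and 17.4% lower. CTSL and CTSD were thus called in both contrasts, which use 1 shared estimate of the spread. The order of the clones in each contrast is arbitrary, so nothing is read from the shared direction. The share of all genes called in both was not counted, so nothing is read from these 2 genes being called in both. On the TPM scale the split of all genes in the mCherry contrast turned to 1412 higher and 3221 lower, against 3067 higher and 2685 lower by counts.

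GALC was counted in 1 clone only. GALC (ENSG00000054983.17, chr14:87837820-87993665, minus strand) is galactosylceramidase, which removes galactose from galactosylceramide and psychosine, and its loss causes Krabbe disease. It had 0 counts in all 6 LmnB1 libraries, against 313, 293 and 326 estimated counts in mCherry_4 libraries and 0 in the 3 mCherry_3 libraries. In mCherry_4 this came to 14.1, 12.2 and 13.8 CPM, a mean of 13.4 ± 1.02 CPM (SD, n = 3). The other mCherry clone therefore stood with the LmnB1 clones, and a mean over the mCherry libraries would describe neither clone. With 3 counts over the 3 libraries of a clone as the limit that a count of 0 allows, GALC was at least 304-fold higher in mCherry_4 than in LmnB1_16, at least 328-fold higher than in LmnB1_6 and at least 362-fold higher than in mCherry_3. These limits cover counting error only.

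GALC passed the low-count filter through mCherry_4 alone. Genes of this kind were few: with 0 counts in the other 3 clones and at least 10 counts in each library of 1 clone, there was 1 gene for LmnB1_16, 2 for LmnB1_6, 3 for mCherry_4 and 3 for mCherry_3. With at least 100 counts in each library there was 1 for mCherry_4, which was GALC, and 1 for mCherry_3. No tested gene lay within 250 kb of GALC. The nearest tested protein-coding genes were FLRT2, a cell adhesion protein 2183.4 kb away, and SPATA7, a ciliary protein of photoreceptors 391.3 kb away. SPATA7 had 4.75 CPM in LmnB1_16, 5.29 in LmnB1_6, 4.72 in mCherry_4 and 4.47 in mCherry_3, so its level was alike in clones with and without GALC counts.

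Per transcript length, the 9 genes covered a wide range. Over all libraries CTSD averaged 492.6 TPM and CTSB 477.2 TPM, and these 2 did not differ beyond their spread over libraries (SD 116.8 and 43.9 TPM, n = 12). LAMP1 followed at 199.1 ± 14.3 TPM, CTSA at 111.3 ± 9.07 TPM and PRCP at 95.4 ± 14.6 TPM, the last 2 with overlapping spreads. CTSL averaged 64.0 ± 21.6 TPM and TPP1 38.6 ± 5.30 TPM. These places were not the same in every clone. CTSD was above CTSB in LmnB1_16, at 611.2 against 413.0 TPM, and below it in LmnB1_6, at 325.8 against 480.4 TPM. CTSL lay next to PRCP in mCherry_4, at 81.1 and 80.1 TPM, and next to TPP1 in mCherry_3, at 42.1 and 43.3 TPM. The place of DPP7 depended on the construct. In LmnB1 libraries it stood at 11.6 ± 0.667 TPM, below TPP1 at 39.1 ± 4.41 TPM, and in mCherry libraries at 92.2 ± 9.96 TPM, next to PRCP at 98.1 ± 21.1 TPM (SD, n = 6 each). GALC was last also where it was counted, at 7.25 ± 0.948 TPM in mCherry_4 (n = 3).

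**Figure D3:**
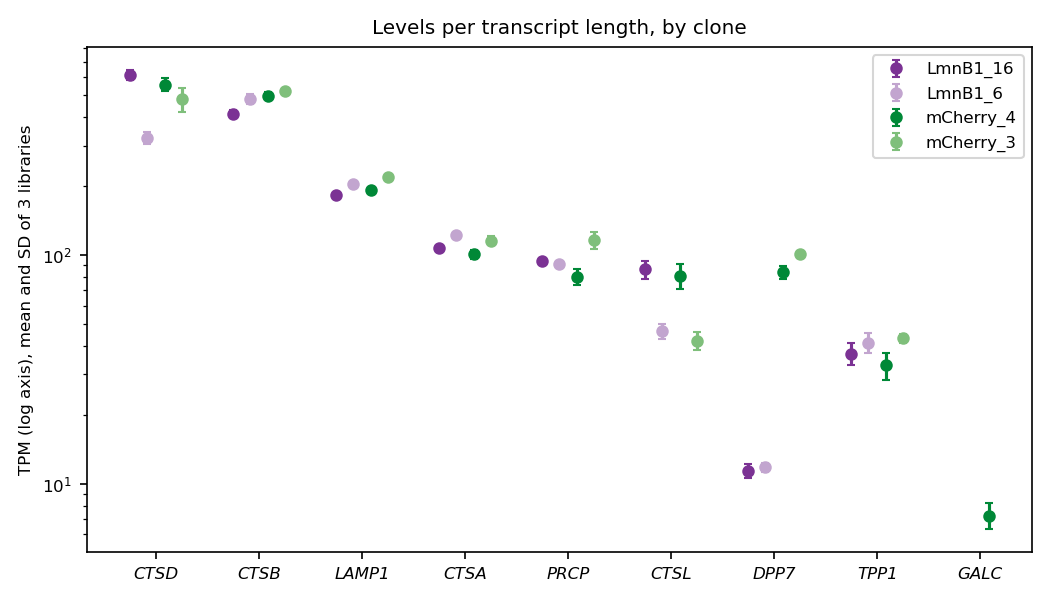
Levels of the 9 genes per transcript length, as mean and SD of the 3 libraries of each clone on a logarithmic TPM axis, ordered by the mean over all libraries. A clone at 0, as for GALC outside mCherry_4, has no point. DPP7 covers 2 places, with the LmnB1 clones at 11.4 and 11.8 TPM and the mCherry clones at 83.9 and 100.5 TPM.

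The genes around DPP7 did not share its difference. Of the 25 other tested genes within 250 kb, 3 were higher in LmnB1 libraries (UAP1L1, NDOR1 and NELFB), 1 was lower (MAN1B1-DT, log2 fold change -0.57) and 21 did not pass the edgeR test, where 8.58% of all tested genes were higher and 9.25% lower. Their median log2 fold change was 0.08 and their range -1.03 to 1.21. The highest, UAP1L1, was raised in LmnB1_6 alone, at 23.7 CPM, against 6.20 in LmnB1_16, 6.69 in mCherry_4 and 6.24 in mCherry_3. The nearest, MAN1B1, a mannosidase of glycoprotein quality control 1.4 kb from DPP7, averaged 67.0 ± 4.51 CPM in LmnB1_16 and 63.9 ± 1.76 CPM in LmnB1_6, against 69.3 ± 2.37 CPM in mCherry_4 and 77.3 ± 1.16 CPM in mCherry_3 (SD, n = 3 each). Its log2 fold change was -0.16 (SE 0.06, edgeR adjusted p = 0.0582). On the other side the nearest tested protein-coding gene was LRRC26, at 53.6 kb, with a log2 fold change of 0.86 (SE 0.42, edgeR adjusted p = 0.17).

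**Figure D4:**
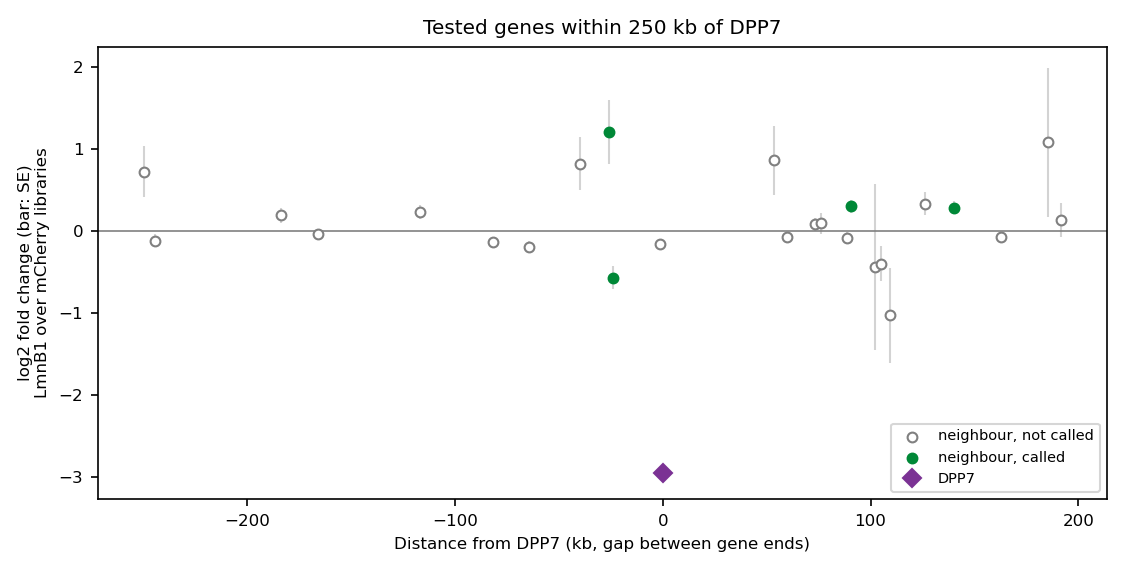
Log2 fold change of LmnB1 over mCherry libraries, with the SE as bars, for DPP7 and the 25 other tested genes within 250 kb, against their distance from DPP7 in kb. Filled circles passed the edgeR test. DPP7 lies at -2.95 and its neighbours between -1.03 and 1.21.

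The protein-coding genes whose levels were most like DPP7 were ranked by Pearson's r of log2(CPM + 0.1) over the 12 libraries. They were HSPB8, a small heat shock protein (r = 0.994), NXPH2 (0.991), OR51E2 (0.989), MAOA, the enzyme that oxidises serotonin and noradrenaline (0.986), and RHOD, a small GTPase of endosomes (0.985). All 5 lay on other chromosomes and were at or near 0 in LmnB1 libraries: HSPB8 averaged 0 CPM in LmnB1_16 and 0.0112 CPM in LmnB1_6, against 16.5 CPM in mCherry_4 and 43.9 CPM in mCherry_3. DPP7 differed from them in keeping a counted level in LmnB1 clones. For GALC the like genes were C9orf64 (1.000), ZNF649 (0.999), KCNJ4 (0.985), TPM1, a tropomyosin (0.98), and C12orf75 (0.98). C9orf64 and ZNF649 were at 0 in the same 9 libraries as GALC, while TPM1 was abundant in all clones, at 596.0, 622.2, 976.6 and 646.4 CPM in LmnB1_16, LmnB1_6, mCherry_4 and mCherry_3. The libraries share their clones, so these values of r rest on few independent points and describe these libraries only.

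Other lysosomal genes were examined as listed groups, in which a call means an edgeR adjusted p under 0.05 over all 15388 genes, of which 8.58% were higher and 9.25% lower in LmnB1 libraries. On counts summed per clone no gene of any list was called, nor any of all tested genes in edgeR, where 642 had an unadjusted p under 0.05. The clones of mCherry also differed in these lists, as given below, where 19.9% of all genes were higher and 17.4% lower in mCherry_4 than in mCherry_3. Among 11 tested further lysosomal peptidases, 0 were higher and 4 lower in LmnB1 libraries, with a median log2 fold change of -0.24, against 0.002 for all genes. LGMN, the asparaginyl endopeptidase that processes cathepsins, averaged 12.3 ± 0.594 CPM in LmnB1_16 and 14.3 ± 1.11 CPM in LmnB1_6, against 26.2 ± 0.371 CPM in mCherry_4 and 37.2 ± 1.21 CPM in mCherry_3 (log2 fold change -1.26, SE 0.12, edgeR adjusted p = 0.000105). The others were CTSK (-1.31), CTSO (-0.93) and CPQ (-0.49). LGMN and CTSK were called lower in all 4 pairings of LmnB1 and mCherry clones. Of all genes, 4.68% were called alike in all 4 pairings, 1.77% higher and 2.91% lower. The count of lower peptidases was 2 without mCherry_3 and 2 with clone as a random effect. Between the mCherry clones, 7 of the 11 were lower in mCherry_4.

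Of 11 tested prolyl and dipeptidyl peptidases outside or related to DPP7's class, 0 were higher and 4 lower (median -0.08): XPNPEP1 (-0.28), ACE, the angiotensin-converting enzyme (-1.64), PREPL (-0.61) and DPP3 (-0.24). That count was 0 without mCherry_3, 0 without LmnB1_6, 0 with clone as a random effect and 0 without a single library, mCherry_3 replicate 3. Between the mCherry clones, 2 of the 11 were higher and 6 lower in mCherry_4. Of 4 tested cathepsin inhibitors, 1 was lower, SERPINB1 (-1.04, SE 0.22), and 0 were without mCherry_3, without LmnB1_6 or with clone as a random effect. In mCherry_4, 3 of the 4 were lower than in mCherry_3.

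Of 16 glycosidases, 2 were higher and 3 lower, the lower ones being FUCA1 (-0.99), IDUA (-0.75) and MANBA (-0.50), with a median of -0.11. Of the 18 enzymes of lipid and sulfate breakdown, the list nearest to GALC, 0 were higher and 8 lower (median -0.23). The widest difference was in SGSH, the heparan sulfatase, at 4.25 ± 0.565 CPM in LmnB1_16 and 1.83 ± 0.424 CPM in LmnB1_6, against 15.8 ± 1.26 CPM in mCherry_4 and 26.8 ± 0.790 CPM in mCherry_3 (log2 fold change -2.81, SE 0.31, edgeR adjusted p = 0.000261). SMPD1, acid sphingomyelinase, fell by 0.47 and the phospholipase PLA2G15 by 0.29 on the log2 scale. The lower counts were 1 for glycosidases and 1 for lipid and sulfate enzymes without mCherry_3, and likewise 1 and 1 without LmnB1_6 and with clone as a random effect. Lower calls among lipid and sulfate enzymes were 4 when any 1 library of mCherry_3 was left out, and among glycosidases 1 without mCherry_3 replicate 1 or 3 or LmnB1_6 replicate 2. Between the mCherry clones, 13 of the 18 lipid and sulfate enzymes and 6 of the 16 glycosidases were lower in mCherry_4.

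Of 19 tested genes of the lysosomal membrane and cholesterol export, 1 was higher, NPC2 (0.67), and 3 lower, among them OSTM1 (-0.90) and NPC1 (-0.62). The V-ATPase was the list with most calls, 10 of 16 subunit genes lower and 0 higher, with all 16 log2 fold changes below 0 and a median of -0.37. ATP6V1D averaged 83.3 ± 1.78 CPM in LmnB1_16 and 85.2 ± 0.752 CPM in LmnB1_6, against 106.4 ± 3.23 CPM in mCherry_4 and 121.8 ± 7.99 CPM in mCherry_3 (log2 fold change -0.44, SE 0.06, edgeR adjusted p = 0.000665). ATP6V0E1 fell by 0.47 and ATP6V1G1 by 0.43. Without mCherry_3, 2 V-ATPase genes were lower, 6 without LmnB1_6, 8 without LmnB1_16 and 14 without mCherry_4, and with clone as a random effect the count was 0. Between the mCherry clones, 11 of the 16 were lower in mCherry_4. The membrane list had 1 lower gene without mCherry_3, 1 with clone as a random effect, 1 without any single library of mCherry_3 or LmnB1_6, and 2 without LmnB1_6. In mCherry_4, 9 of the 19 were lower than in mCherry_3. NPC2 was not called without mCherry_3 or without LmnB1_6.

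Of 17 tested sorting genes, 7 were lower and 0 higher (median -0.20), among them GGA2 (-0.35), GNPTAB (-0.46), which starts the mannose 6-phosphate tag, and VPS33A (-0.22). The count was 1 without mCherry_3, 0 without LmnB1_6 and 0 with clone as a random effect, and 4 when any 1 library of mCherry_3, or LmnB1_6 replicate 2 or 3, was left out. Of the 17, 9 were lower in mCherry_4 than in mCherry_3. Of 18 tested regulators of lysosomal genes, 0 were called in either direction by edgeR over all genes and the median was -0.11. Lower calls in this list numbered 2 with DESeq2, 3 without LmnB1_16, 2 without mCherry_4, 1 without LmnB1_6 and 0 without mCherry_3. With 1 library left out, the list had 0 to 1 calls. TFE3, the most abundant, had 125.1 CPM in LmnB1_16 and 131.5 in LmnB1_6, against 126.6 in mCherry_4 and 124.1 in mCherry_3 (log2 fold change 0.03, edgeR adjusted p = 0.585). MITF, named after its values were seen, had 31.3 CPM in LmnB1_16 and 0.059 in LmnB1_6, against 49.0 in mCherry_4 and 58.6 in mCherry_3. Between the constructs it was not called (log2 fold change -1.78, SE 1.00, edgeR adjusted p = 0.228). It was the 1 gene of this list called lower in all 4 pairings of clones, as were 2.91% of all genes. Its LmnB1 libraries lay below all mCherry libraries.

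Markers of pigment epithelium, leukocytes and fibroblasts were examined as lists in the same way. The summed pigment epithelium markers covered 804 to 847 CPM in LmnB1_16 and 591 to 637 in LmnB1_6, against 861 to 938 in mCherry_4 and 1170 to 1310 in mCherry_3. Most of these sums was KRT8 and KRT18, at 372.5 and 437.7 CPM in LmnB1_16. OTX2 averaged 15.5 CPM in LmnB1_16 and 0 in LmnB1_6, against 11.1 in mCherry_4 and 12.6 in mCherry_3. PMEL averaged 0.815, 2.09, 1.20 and 4.54 CPM in the same order. KRT8 (-0.51) and KRT18 (-0.58) were the 2 of 5 called lower. That count was 0 without mCherry_3, 0 without LmnB1_6 and 0 with clone as a random effect. Of 7 leukocyte markers, which macrophages rich in cathepsins would bring, 1 was tested, CSF1R, and the summed level was 1.10 to 6.61 CPM over all libraries. Summed fibroblast markers covered 326 to 371 CPM in LmnB1_16 and 322 to 395 in LmnB1_6, against 311 to 344 in mCherry_4 and 343 to 353 in mCherry_3. Of 5 tested, 3 had log2 fold changes above 0 and 2 below, and COL1A1 alone was called, higher in LmnB1 (2.66). COL1A1 had 20.5 CPM in LmnB1_16 and 185.5 in LmnB1_6, against 17.5 in mCherry_4 and 15.1 in mCherry_3. It was not called without LmnB1_6, without mCherry_4, without mCherry_3 or with clone as a random effect. THY1 was lowest in LmnB1_6, at 277.6, 118.1, 268.0 and 291.1 CPM in the same order of clones. The part of all these markers in the differences of the lysosomal lists was not tested. DPP7 averaged 8.18 ± 0.337 CPM in LmnB1_16 and 8.25 ± 0.848 CPM in LmnB1_6, and its relation to these markers was not tested.

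**Figure D5:**
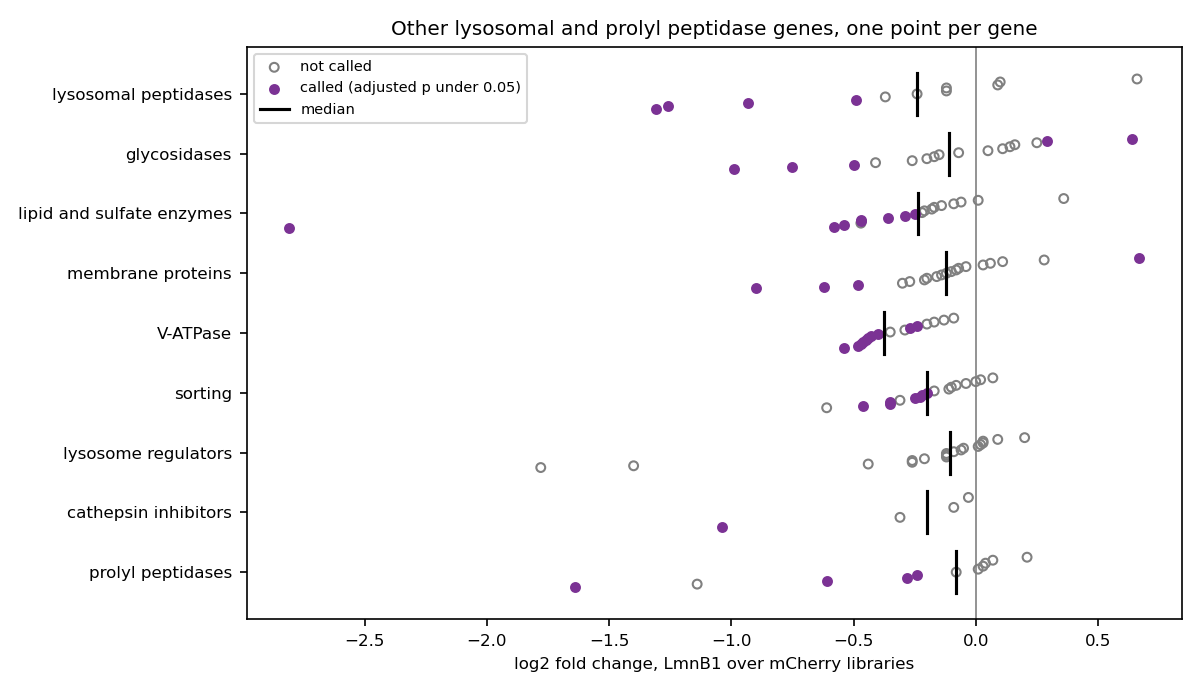
Log2 fold change of LmnB1 over mCherry libraries for each tested gene of 9 lists that hold none of the 9 genes described, 1 point per gene, filled where the edgeR test passed, with the list's median as a bar. The V-ATPase points all lie below 0, and the lowest point of all is SGSH at -2.81.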

How the data were processed

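Per the labels' protocols, RNA from 12 libraries (4 clones, 3 libraries each) was isolated with Trizol and a column kit, and mRNA libraries were made and sequenced by a provider. The submitters' processing notes name STAR, Salmon, DESeq2 and GRCh38 (hg38), without versions or annotation release. The authors deposited 1 table per library with estimated counts and TPM per gene, per the file headers; 31.3 to 32.6% of detected genes had estimated counts that were not whole. Of 60708 IDs, 60696 matched a symbol. Gene positions are from GENCODE 29, which held 58440 of them, and promoters from RefSeq's table on GRCh38.p14.

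Estimated counts, as deposited by the authors, were rounded and tested with edgeR 4.0.16 in R 4.3.3 (quasi-likelihood, TMM, Benjamini-Hochberg adjustment over 15388 genes, threshold 0.05, filter of 10 counts and 15 in total). At least 99.93% of each library lay in tested genes. One fit compared the constructs and another the clones, and the second gave the contrasts of single clones. Their biological coefficients of variation were 0.262 and 0.0842. Within a clone, no 2 libraries agreed within sampling noise (smallest chi-square per degree of freedom 3.78). TPM, as deposited, were tested with limma 3.58.1 on log2(TPM + 0.1), and DESeq2 1.42.0 was an alternative. In simulated counts for 15388 genes, 95.5% of 2-fold changes between constructs, 83.6% between the LmnB1 clones and 82.1% between the mCherry clones were recovered. False calls numbered 11, 6 and 7 in the same order. The simulated clones of 1 construct did not differ, and their spread was that of the fit with clones as groups. The 95.5% and the 11 false calls therefore do not apply to the construct comparison of the real libraries, whose clones differ. The changed genes were drawn only from those above a minimum mean CPM.

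The 9 genes and the lists were chosen with earlier results of these data known. Named besides them were, of each lysosomal list, the called genes of lowest adjusted p, up to 3 (or, with no call, the gene with most counts), the 5 protein-coding genes most correlated with DPP7 and with GALC, and the nearest tested protein-coding gene on either side of both; 1 gene that this rule names is not reported here. CTSK, IDUA, DPP3, MITF and the called neighbours of DPP7 other than MAN1B1 and LRRC26 were named after their values were seen. Alternatives were other scaling, tool, filter and unit, a replicate block, each library or clone left out, counts summed per clone, and clone as a random effect.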

Additional observations from a re-analysis of the deposited data

Results flagged for a closer look

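For 5 of the 7 genes tested within constructs the difference from the mCherry clones was itself different between the LmnB1 clones, by the edgeR test of LmnB1_16 against LmnB1_6, in which 34.4% of all tested genes were called. The effect of LmnB1_16 minus that of LmnB1_6, on the log2 scale, was 0.87 for CTSD and 0.79 for CTSL. It was -0.23 for CTSA, -0.22 for CTSB and -0.22 for LAMP1. For CTSD the effects themselves were 0.27 in LmnB1_16 and -0.60 in LmnB1_6, and for CTSL they were 0.54 and -0.26 in the same order, so that the clones lay on opposite sides of the mCherry mean. For CTSL the mCherry clones themselves differed by 1.04, so that mean describes neither of them. Over mCherry_4 and mCherry_3 taken singly, CTSL stood at 0.02 and 1.06 in LmnB1_16 and at -0.78 and 0.26 in LmnB1_6. No cause of these differences was tested.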

How the results depend on the processing

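Between the constructs 2743 genes were called. The count was 1684 with limma on log2(TPM + 0.1), 163 with clone as a random effect, and 0 in edgeR on counts summed per clone, where 642 genes had an unadjusted p under 0.05 and the smallest adjusted p was 0.261. It was 4808 without LmnB1_16, 1263 without LmnB1_6, 4958 without mCherry_4 and 647 without mCherry_3. DESeq2 called 3741 and the fit with no filter 1897. Leaving out 1 library gave 1392 (without mCherry_3 replicate 3) to 3078 (without mCherry_4 replicate 2), with 1493 and 1495 without the other mCherry_3 libraries and 1567, 1527 and 1828 without LmnB1_6 replicates 1, 2 and 3. Genes called alike in all 4 clone contrasts numbered 720, against 360 on TPM and 511 to 711 with 1 library left out. Between LmnB1_16 and LmnB1_6 the 5289 calls became 4521 to 5422, and between mCherry_4 and mCherry_3 the 5752 calls became 4701 to 6227.

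Replicate numbers were not taken to pair the samples, since not every pair passed a correlation of 0.1: libraries of the same number correlated from -0.054 to 0.181 over 18 pairs. The 3 pairs above 0.1 (0.122, 0.181 and 0.119) were all of replicate 3, in LmnB1_16, LmnB1_6 and mCherry_4, and 5 of 12 correlated best with their own number. With a replicate block the construct count was 1648, the count alike in all 4 clone contrasts 755, and the counts within constructs 5391 (LmnB1) and 5855 (mCherry).

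For the 7 genes tested within constructs, 224 of 238 values under alternatives kept direction and call. Of the others, 10 passed anew and 1 was lost (CTSD on TPM). Those 10 were 8 of TPP1, and CTSA and LAMP1 between the mCherry clones on TPM. PRCP between the LmnB1 clones turned to 0.0396 on TPM and covered -0.061 to 0.0049 with 1 library left out. CTSB between the mCherry clones turned to -0.0662 on TPM. With 1 library left out, DPP7 covered -0.0723 to 0.075 between the LmnB1 clones and -2.98 to -2.92 between the constructs. The construct value of DPP7 was -3.03 without mCherry_4 and -2.86 without mCherry_3. Between the constructs TFE3 turned to -0.0276 on TPM, and CSF1R to 0.6112 on TPM, 0.2665 without LmnB1_6 and 1.0489 without mCherry_4. Without mCherry_4, GALC gave no value. The cause of these changes was not tested. For GALC, a limit of 3 counts over a clone's libraries was 0.0369 to 0.044 CPM.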
